A study of Mus musculus with 12 samples.

Results

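The response of wild-type mouse skin to a patch of Aspergillus fumigatus extract was read from 6 of the 12 RNA libraries of the series, chosen by their labels: the 3 named BALB/C WT ASP and the 3 named BALB/C WT SAL. All 6 came from wild-type BALB/C mice, an inbred albino strain, whose backs were shaved on day 0. A gauze patch was taped on at day 1 and taken off at day 4, and skin from under it was collected at day 5, so the libraries show skin 1 day after the patch was removed. In the ASP group the patch held 200 µg of extract. The control group carries the mark SAL, left unexplained by the labels, and the protocol text attached to its samples is the same as for ASP. The labels give no age and no link from libraries to animals, so p-values measure only the spread between these samples. The other 6 libraries had the same ASP and SAL treatments in a second genotype, whose labels conflict (titles name a knockout of SCCA2, the genotype field a transgene of Serpinb3a and the design text a Serpinb3a null), and which is called labelled-null here. They entered the model for its estimate of spread and for the test of whether the wild-type response differed from theirs.

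Aspergillus fumigatus is a mould whose spores are a common airborne allergen, and its extracts carry proteases, cell wall sugars and allergenic proteins. In the textbook account of allergic skin, keratinocytes that meet such material release the alarmins IL-33, TSLP and IL-25. These act on innate lymphoid cells, mast cells and T cells, which make IL-4, IL-5 and IL-13. Those cytokines in turn lead macrophages into an alternatively activated state and raise the chemokines that draw eosinophils and T helper cells, while dendritic cells load fungal antigens on MHC class II. Cell wall sugars are sensed by C-type lectins that signal through Syk, Card9 and Bcl10.

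Total counts were 12659425, 9183009 and 10897803 for SAL replicates 1, 2 and 3 and 9559632, 8390211 and 9030721 for the ASP replicates. Levels below are CPM, the usual counts relative to the library total, with totals scaled by TMM (a trimmed mean of ratios between libraries), and are listed in the order of replicates 1, 2 and 3 of each group. In a library where a gene has 0 counts, a limit of 3 counts corresponds to 0.237 to 0.358 CPM of the unscaled total, and this limit covers counting error only. Markers of the tissue were present in all 6 libraries, with Krt10 of suprabasal epidermis at 4846, 1920.4 and 3567 CPM under SAL and 4170.3, 1837 and 2493 under ASP and Col3a1 of dermal fibroblasts at 757, 776 and 789 CPM under SAL and 613, 647 and 737 under ASP. The muscle gene Ttn reached 67309.5, 19424 and 64973 CPM under SAL and 34346, 12924 and 41535 under ASP, so the samples hold the muscle layer under the skin.

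ASP replicates 2 and 3 stood apart from the other libraries, and from each other. Their Spearman correlation over the tested genes was 0.854, the lowest of the 15 pairs, whereas ASP replicate 1 and SAL replicate 3 had the highest, at 0.957. The median correlation was 0.917 for the 6 pairs within a group and 0.903 for the 9 pairs between groups. ASP replicate 3 was the highest of the 6 libraries for 24.0% of genes and the lowest for 28.3%, and ASP replicate 2 was the highest for 22.9% and the lowest for 22.2%. ASP replicate 1 was the highest for 11.6% and the lowest for 11.1%. The first principal component held 39.2% of the variance and set ASP replicate 3 (loading 0.85) against ASP replicate 2 (loading -0.45).

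No gene passed in the comparison of ASP with SAL. EdgeR's quasi-likelihood test with Benjamini-Hochberg adjustment called 0 of 15341 genes higher and 0 lower (0.00% each), and the smallest adjusted p was 0.999, so every difference below is described by its values and none is called. The unadjusted p was under 0.05 for 440 genes with a higher ASP mean (2.87%) and 287 with a lower one (1.87%), against the 767 that 5% of the genes tested would make. DESeq2 called 1 gene higher and 1 lower and had 569 and 335 below that level. The limma-voom fit called 0 and 0 and had 190 and 170. The median log2 fold change over all genes was 0.02, and 51.5% of genes had a positive one. The ASP libraries all lay above the SAL libraries for 3.18% of genes and all below for 3.60%.

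**Figure D1:**
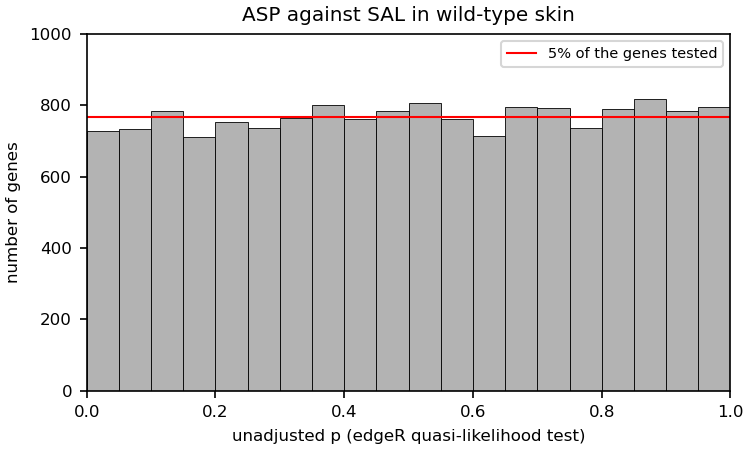
Number of genes (vertical axis) in each step of 0.05 of the unadjusted p (horizontal axis) for ASP against SAL in wild-type skin, with a red line at 5% of the genes tested. The lowest step holds 727 genes against 767.05 at the line, and no step stands out.

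Of the 440 genes with a higher ASP mean at an unadjusted p under 0.05, 225 were highest in ASP replicate 3, 189 in ASP replicate 2 and 26 in ASP replicate 1, and the groups did not overlap in 164. Of the 287 lower ones, 145 were lowest in ASP replicate 3, 134 were highest in SAL replicate 1, and the groups did not overlap in 149. These lists therefore lean on single libraries. Without SAL replicate 1 the number of such genes was 413 in place of 727, and without ASP replicate 1 there were 1358, with 0 called in each case. Leaving out both ASP replicates 2 and 3, which leaves ASP replicate 1 as the single ASP library and takes its spread from the other groups, gave 255 such genes, of which 66 were among the 727.

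The genes that separated the groups most clearly with a higher level under ASP were the 15 with the smallest p among those whose libraries did not overlap. Taf1b, a subunit of the factor that recruits RNA polymerase I to ribosomal RNA genes (chromosome 12, 24498581 to 24558571, mm10), was at 8.43, 7.71 and 7.59 CPM under SAL and 12.1, 23.3 and 42.7 under ASP. Its log2 fold change was 1.71 ± 0.41 (SE), with an unadjusted p of 0.000608. The SAL libraries lay close together and the ASP libraries spread upward from them. Sdc4, a heparan sulphate proteoglycan of the cell surface that keratinocytes use in adhesion and repair, was at 14.2, 19.1 and 27.6 CPM under SAL and 39.9, 35.3 and 112 under ASP (1.62 ± 0.41). Homer3, a scaffold protein, was at 2.81, 2.26 and 3.19 under SAL and 4.89, 7.001 and 30.8 under ASP (2.35 ± 0.61), and Itm2c, a membrane protein, at 10.9, 7.402 and 12.3 under SAL and 19.3, 26.3 and 37.1 under ASP (1.43 ± 0.37). In all 4 genes ASP replicate 3 was the highest library.

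Bcl10, the adaptor through which C-type lectin and antigen receptors reach NF-κB (chromosome 3, 145924262 to 145934366), was at 2.99, 2.57 and 5.24 under SAL and 7.34, 8.68 and 41.2 under ASP (2.39 ± 0.64, unadjusted p = 0.00167). The step from the highest SAL library to the lowest ASP library was small beside the value of ASP replicate 3. Rap1b, a small GTPase of integrin adhesion, was at 24.7, 37.7 and 41.01 under SAL and 43.4, 94.7 and 103 under ASP (1.22 ± 0.33), and Arhgap30, a GTPase-activating protein of blood cells, at 4.803, 7.61 and 8.66 under SAL and 20.6, 12.9 and 22.5 under ASP (1.41 ± 0.41). Orm1, an acute phase plasma protein, was at 17.2, 16.9 and 14.6 under SAL and 29.95, 43.7 and 42.4 under ASP (1.25 ± 0.37), with 3 close SAL values and 3 close ASP values. Mad2l2, a subunit of a translesion DNA polymerase, was at 3.63, 5.65 and 6.23 under SAL and 11.8, 9.62 and 29.98 under ASP (1.72 ± 0.51). The spliceosome protein gene Snrpg was at 13.3, 12.3 and 11.8 under SAL and 19.9985, 35.8 and 27.6 under ASP (1.15 ± 0.34) and the ubiquitin-conjugating enzyme Ube2e2 at 1.36, 6.07 and 3.797 under SAL and 11.5, 8.21 and 19.8 under ASP (1.81 ± 0.54). Ppcs, an enzyme of coenzyme A synthesis, was at 1.81, 0.7196 and 2.13 under SAL and 5.15, 7.37 and 5.41 under ASP (1.93 ± 0.58), a low level in all 6. The zinc finger gene Zfp119b was at 3.35, 5.04 and 2.96 under SAL and 5.94, 8.49 and 51.8 under ASP, where ASP replicate 3 stands far above the rest. Rplp0, of the ribosomal stalk, and the processed pseudogene Rps15a-ps4 complete the group and are described with the ribosomal proteins.

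**Figure D2:**
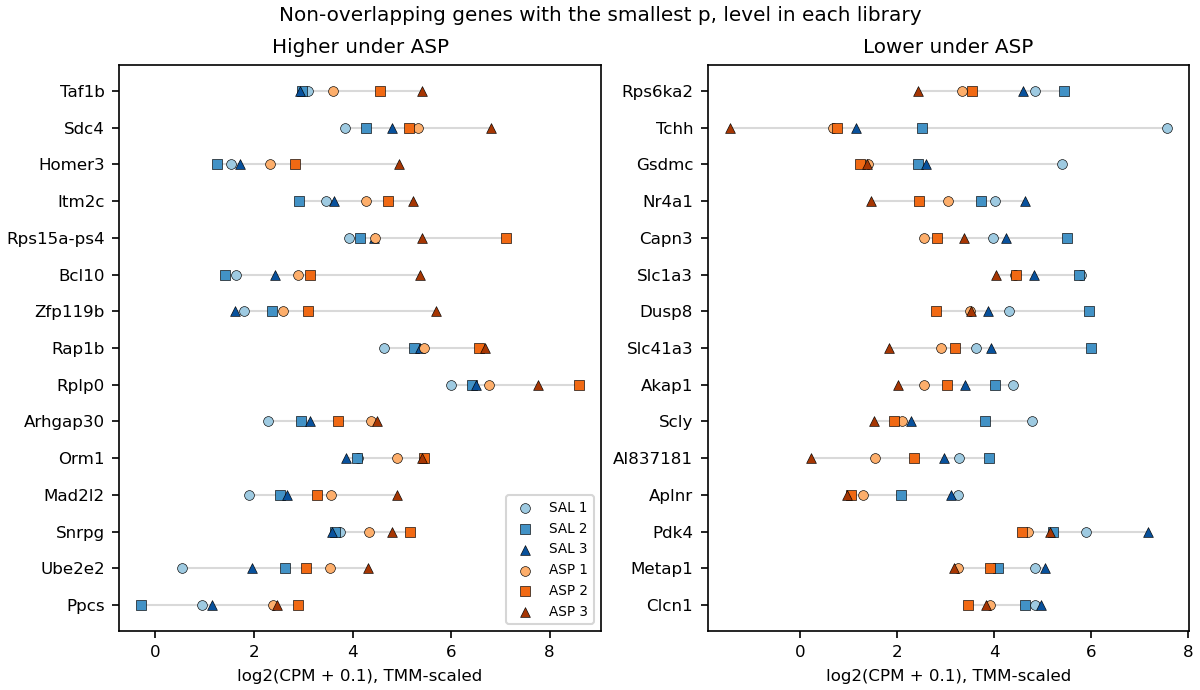
Level of each gene in each library as log2(CPM + 0.1), for the 15 genes per direction with the smallest p among genes whose groups do not overlap; blue points are SAL and orange points ASP libraries, with 1 shape per replicate number. ASP replicate 3 is the highest library for Taf1b, at 42.7 CPM, and SAL replicate 1 stands alone for Tchh, at 189 CPM.

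Among the 15 genes with lower ASP levels, Rps6ka2, a ribosomal S6 kinase downstream of ERK (chromosome 17, 7088971 to 7303315), had the smallest p of all genes, at 28.4, 43.2 and 23.8 under SAL and 10.04, 11.6 and 5.28 under ASP. Its log2 fold change was -1.82 ± 0.38 with an unadjusted p of 0.000189, and it is the gene DESeq2 called lower. Every SAL library lay well above every ASP library. Nr4a1, an orphan nuclear receptor induced within minutes of a stimulus (chromosome 15, 101253902 to 101274795), was at 15.95, 13.2 and 24.5 under SAL and 8.12, 5.32 and 2.64 under ASP (-1.73 ± 0.46, unadjusted p = 0.00154). Slc1a3, a glutamate transporter, was at 54.8, 53.6 and 28.02 under SAL and 21.4, 21.7 and 16.2 under ASP (-1.20 ± 0.33) and Clcn1, the chloride channel of skeletal muscle, at 28.4, 24.6 and 30.8 under SAL and 15.02, 10.8 and 14 under ASP (-1.07 ± 0.34). In all 15 genes every ASP library lay under every SAL library, because they were chosen for it.

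Several other genes of the lower group had 1 high SAL library. Gsdmc, a pore-forming gasdermin, was at 42.2, 5.24 and 5.92 under SAL and 2.53, 2.24 and 2.51 under ASP (-2.87 ± 0.73), with SAL replicate 1 far above all others. Capn3, the muscle calpain, was at 15.7, 45.03 and 18.9 under SAL and 5.76, 6.91 and 10.3 under ASP (-1.80 ± 0.48), and Dusp8, a phosphatase of MAP kinases, at 19.5, 62.1 and 14.6 under SAL and 11.3, 6.81 and 11.4 under ASP (-1.71 ± 0.48). In both, SAL replicate 2 was the high one, as it was for Slc41a3, a magnesium transporter, at 12.1, 63.2 and 15.1 under SAL and 7.34, 8.96 and 3.43 under ASP (-2.18 ± 0.61). Pdk4, which restrains glucose oxidation in mitochondria, was highest in SAL replicate 3, at 58.8, 37.01 and 143 under SAL and 25.8, 23.5 and 35.3 under ASP (-1.50 ± 0.47). Tchh, described with the hair genes, and Scly were highest in SAL replicate 1. Akap1, a mitochondrial anchor of protein kinase A, was at 20.8, 16.04 and 10.4 under SAL and 5.76, 8.03 and 3.96 under ASP (-1.41 ± 0.40), and the selenocysteine lyase Scly at 27.1, 13.9 and 4.78 under SAL and 4.19, 3.73 and 2.77 under ASP (-2.09 ± 0.61). Aplnr, the apelin receptor of blood vessels, was at 9.43, 4.11 and 8.51 under SAL and 2.36, 1.96 and 1.85 under ASP (-1.83 ± 0.56). Metap1, a methionine aminopeptidase, was at 28.4, 16.7 and 32.7 under SAL and 9.34, 14.8 and 8.85 under ASP (-1.23 ± 0.39), and AI837181, which has no named function, at 9.52, 14.8 and 7.67 under SAL and 2.79, 4.95 and 1.06 under ASP (-1.84 ± 0.56).

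Near-identical copies and overlapping genes touch some of these values. Of the 50-base stretches in their transcripts, 35.5% in Rps15a-ps4, 33.1% in Rplp0, 23.0% in Zfp119b, 20.4% in Orm1 and 19.4% in Rps6ka2 also occur in another gene, so those levels are uncertain. Homer3, Orm1, Mad2l2, Zfp119b, Ube2e2, Capn3, Dusp8, Akap1, Metap1 and Clcn1 overlap another annotated gene. Without a strand setting in the sources used here, reads of such neighbours cannot be told apart.

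The alarmins and the cytokines of the type 2 response showed no shared direction. Il33, which keratinocytes and stromal cells release on damage, was at 63.7, 66.1 and 48.8 under SAL and 27.7, 28.7 and 72.6 under ASP (-0.47 ± 0.38), with ASP replicates 1 and 2 below all SAL libraries and ASP replicate 3 above them. Tslp, which primes dendritic cells, was at 0.725, 0.514 and 1.14 under SAL and 0.699, 1.59 and 0.264 under ASP, and Areg, an epidermal growth factor of tissue repair, at 2.72, 5.65 and 0.759 under SAL and 1.92, 0.8402 and 8.45 under ASP. The groups overlapped in all 3 genes. The type 2 cytokines lay at or near 0. Il4, the cytokine of T helper 2 identity, was at 0, 0 and 0 under SAL and 0, 0.8402 and 1.45 under ASP, and Il13, the effector of epithelial change, at 0.181, 0 and 0.228 under SAL and 0.699, 0 and 0 under ASP. Il5, which sustains eosinophils, was at 0, 6.79 and 0 under SAL and 0, 0.187 and 0 under ASP, and Il9, which acts on mast cells, at 0.453, 22.8 and 0 under SAL and 0, 0.467 and 0.132 under ASP. For these last 2 genes the single high library was SAL replicate 2. Il25 had no more than 0.0873 CPM in any library, and Il31, Il3 and Csf2 had no count in any of the 6. Only 3 of the 12 members of this list in the table passed the filter on low counts.

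Receptors and signal transducers of the same axis gave a median log2 fold change of -0.01 over 21 tested genes, with 10 positive, against 0.02 over all genes. Il1rl1, the receptor for IL-33, was at 4.35, 4.63 and 5.85 under SAL and 4.104, 9.15 and 15.6 under ASP (0.95 ± 0.50), with ASP replicates 2 and 3 above and ASP replicate 1 below every SAL library. Il4ra, the shared receptor chain for IL-4 and IL-13, was at 15.6, 16.3 and 27.6 under SAL and 16.2, 17.5 and 3.17 under ASP (-0.68 ± 0.48), and its low value is ASP replicate 3. Cish, a feedback inhibitor of STAT5 signals, was at 18.4, 6.58 and 17.2 under SAL and 7.86, 4.48 and 14.4 under ASP and Gata3, a transcription factor of type 2 lymphocytes and also of epidermis and hair, at 84.5, 50.6 and 77.8 under SAL and 107, 44.1 and 113 under ASP. The transducer Stat5a was at 14.6, 9.15 and 16.6 under SAL and 13.5, 10.5 and 7.53 under ASP. None separated the groups.

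Type 2 chemokines had a median log2 fold change of 0.86 over 7 tested genes, 6 of them positive, and 1 higher at an unadjusted p under 0.05, against 2.87% of all genes. The median was 0.34 without ASP replicate 2. Ccl24, eotaxin-2, which draws eosinophils (chromosome 5, 135569935 to 135573123), was at 0.0906, 0.308 and 0.152 under SAL and 0.349, 4.67 and 1.72 under ASP (3.55 ± 0.98, unadjusted p = 0.00216). The ASP libraries all lay above the SAL libraries, but ASP replicate 1 held only 4 counts. Ccl8, a monocyte and eosinophil chemokine, was at 12.96, 16.1 and 20.05 under SAL and 14.4, 94.2 and 9.38 under ASP (1.26 ± 0.68), high in ASP replicate 2 alone. Ccl11, eotaxin-1, was at 71.96, 87.1 and 53.8 under SAL and 46.3, 44.2 and 297 under ASP (0.86 ± 0.62), high in ASP replicate 3 alone, and in the other 2 ASP libraries it lay below every SAL library. Ccl17, a ligand for T cells with the receptor CCR4, was at 0, 1.23 and 0.0759 under SAL and 0, 1.12 and 3.57 under ASP, and Ccl22, with the same receptor, at 2.9, 3.08 and 3.57 under SAL and 6.55, 7.19 and 0.528 under ASP. Ccr4 itself was at 8.97, 9.97 and 17.4 under SAL and 15.5, 8.78 and 9.11 under ASP and the eotaxin receptor Ccr3 at 2.81, 0.925 and 0.911 under SAL and 1.83, 4.48 and 2.11 under ASP. The members of this family were thus high in different ASP libraries.

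Genes of alternatively activated macrophages had a median log2 fold change of 0.35 over 20 tested, with 12 positive, against 51.5% of all genes. The unadjusted p was under 0.05 and the ASP mean higher for 3 (Clec10a, Cd163 and Ccl24, which is also a type 2 chemokine), against 2.87% of all genes. The median was 0.17 without ASP replicate 2, 0.04 in limma-voom and -0.23 without both ASP replicates 2 and 3. Clec10a, a galactose-binding lectin of macrophages and dendritic cells, was at 2.27, 6.37 and 6.99 under SAL and 5.68, 26.98 and 10.96 under ASP (1.48 ± 0.53), and Retnla, a secreted product of macrophages under IL-4, at 8.7, 25.7 and 27.3 under SAL and 12.8, 70.9 and 78.3 under ASP (1.39 ± 0.66). Cd163, the scavenger receptor for haemoglobin, was at 9.88, 11.8 and 21.8 under SAL and 18.1, 27.6 and 45.7 under ASP (1.07 ± 0.42), and the carbonyl reductase Cbr2 at 12.9, 26.8 and 12.5 under SAL and 15.3, 20.2 and 61.3 under ASP (0.89 ± 0.46). In these genes ASP replicates 2 and 3 were high or intermediate and ASP replicate 1 lay among the SAL libraries. The enzymes and receptors most used to define this state differed less. Arg1, arginase, was at 5.53, 9.46 and 7.82 under SAL and 11.6, 9.62 and 9.64 under ASP (0.44 ± 0.42), with groups that did not overlap but nearly touched. The mannose receptor Mrc1 was at 86.7, 99.1 and 107 under SAL and 80.3, 116 and 122 under ASP (0.12 ± 0.31), and the chitinase-like Chil3 at 0.0906, 1.75 and 0.228 under SAL and 2.53, 0.747 and 0.792 under ASP. Mgl2, a lectin, was at 7.16, 8.74 and 11.5 under SAL and 8.47, 21.9 and 4.49 under ASP and Folr2, a folate receptor of tissue macrophages, at 5.8, 5.24 and 8.51 under SAL and 4.54, 16.7 and 3.57 under ASP, with ASP replicate 2 the highest in both. Trem2, a lipid receptor, was at 0.0906, 0.514 and 1.14 under SAL and 2.62, 2.05 and 0.132 under ASP. Lyve1, F13a1, Stab1, Igf1, Il1rn, Fn1 and Cd209f had overlapping groups, with log2 fold changes from -0.22 ± 0.37 for Igf1 to 0.49 ± 0.46 for Cd209f. Gas6, a bridging ligand for dead cells, had its 3 ASP values under its 3 SAL values, at 139.8, 162 and 131 under SAL and 110.5, 109 and 77.4 under ASP (-0.55 ± 0.31).

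Monocyte and macrophage markers had a median of 0.51 over 27 tested, with 20 positive, 4 higher at an unadjusted p under 0.05 and 0 lower, against 51.5% positive, 2.87% higher and 1.87% lower over all genes. The median was 0.23 without ASP replicate 2 and 0.00 without both ASP replicates 2 and 3. Ccr2, the receptor that brings monocytes from blood, was at 23.2, 33.4 and 17.8 under SAL and 30.8, 59.5 and 58.2 under ASP (1.00 ± 0.45). The lysozyme gene Lyz2 was at 182, 302 and 326 under SAL and 439, 586 and 476 under ASP (0.89 ± 0.42) and its near copy Lyz1 at 51.03, 70.2 and 92.4 under SAL and 97.1, 173 and 121 under ASP (0.87 ± 0.41), and for both the groups did not overlap. In each, 195 stretches of 50 bases also occur in another gene (15.4% of those in Lyz2), so they are not independent measurements. Tyrobp, the signalling adaptor of myeloid receptors, was at 2.81, 7.81 and 6.08 under SAL and 8.296, 31.3 and 3.301 under ASP (1.37 ± 0.62), and Ms4a6d at 3.81, 6.99 and 4.48 under SAL and 6.03, 18.7 and 14.9 under ASP (1.37 ± 0.63). Of the lineage markers, 3 differed by less, with Adgre1 at 13.1, 24.8 and 21.9 under SAL and 17.99, 21.9 and 45.4 under ASP (0.51 ± 0.43), Csf1r at 66.9, 70.6 and 67.2 under SAL and 65.6, 65.3 and 102 under ASP (0.19 ± 0.30) and Cd68 at 32.4, 49.3 and 24.6 under SAL and 32.6, 28.5 and 35 under ASP (-0.15 ± 0.44). C1qa, another lineage marker, had a log2 fold change of 1.04, which was -0.44 without ASP replicate 2. Cd14 had -0.40. In whole skin, a change in the number of cells of a type and a change in RNA per cell cannot be told apart. Of the 27 tested members, 12 were highest in ASP replicate 2, 7 in ASP replicate 3 and 1 in ASP replicate 1.

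Dendritic and Langerhans cell markers had a median of 0.53 over 20 tested, with 14 positive and 2 higher at an unadjusted p under 0.05, against 51.5% positive and 2.87% higher over all genes. The median was 0.29 without ASP replicate 3, 0.25 with the filter of 2 CPM in 3 libraries and -0.13 without both ASP replicates 2 and 3. Cd83, a surface marker of mature dendritic cells, was at 1.09, 1.03 and 1.75 under SAL and 0.873, 4.29 and 15.5 under ASP (2.39 ± 0.81), and its ASP replicate 1 was the lowest of the 6 libraries. Dpp4, a surface peptidase, was at 35.9, 34.1 and 42.2 under SAL and 35.4, 54.1 and 121 under ASP (0.90 ± 0.39). Clec9a, a receptor for dead cells on cross-presenting dendritic cells, was at 1.18, 1.23 and 1.14 under SAL and 1.57, 3.92 and 3.698 under ASP (1.36 ± 0.78) without overlap. The transcription factor Batf3 of the same cells was at 0.0906, 1.13 and 0.0759 under SAL and 2.36, 1.49 and 0.396 under ASP and the lymph node homing receptor Ccr7 at 0.181, 0.103 and 0.0759 under SAL and 0.175, 0.8402 and 0.924 under ASP, both low. All 8 tested genes of MHC class II presentation had positive log2 fold changes, against 51.5% of all genes, with a median of 0.45. Of these 8, 3 were higher at an unadjusted p under 0.05, against 2.87% of all genes. H2-DMa, a chain of the peptide-loading chaperone, was at 3.08, 11.9 and 7.82 under SAL and 24.4, 13.7 and 16.8 under ASP (1.27 ± 0.44, unadjusted p = 0.0101) and separated the groups. It overlaps Brd2 in the annotation. Its partner H2-DMb1 was at 2.18, 3.29 and 4.48 under SAL and 5.41, 9.802 and 3.96 under ASP (0.95 ± 0.45), and the class II beta chain H2-Eb1 at 9.79, 24.2 and 25.97 under SAL and 27.6, 67.96 and 24.8 under ASP (1.01 ± 0.43). H2-Ab1, the other beta chain, was at 67.2, 82.8 and 58.3 under SAL and 94.7, 77.6 and 93.6 under ASP (0.35 ± 0.31), and Ctss, the protease that trims the invariant chain, at 25.8, 39.3 and 25.8 under SAL and 35.5, 48.4 and 49.1 under ASP (0.55 ± 0.46). SAL replicate 1 was the lowest library for H2-DMa, H2-DMb1 and H2-Eb1.

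**Figure D3:**
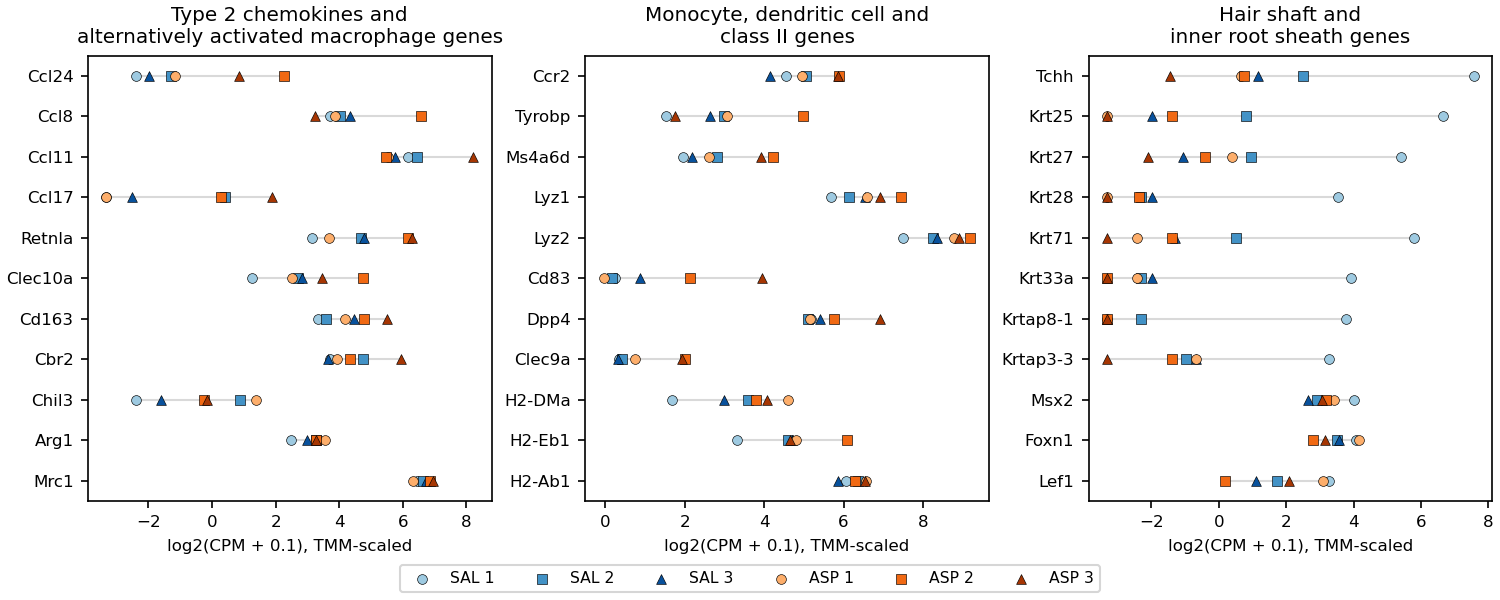
Level in each library as log2(CPM + 0.1) for genes of 3 groups, chosen after their values were seen; blue points are SAL and orange points ASP libraries, with 1 shape per replicate number. ASP replicates 2 and 3 are the upper points for most myeloid genes, such as Retnla at 70.9 and 78.3 CPM, and SAL replicate 1 stands alone for Tchh and the hair keratins, such as Krt25 at 101 CPM, but not for Foxn1.

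Transcripts of granulocytes were few. Among eosinophil genes, Epx and Prg2, the granule proteins that define the cell, had no count in any of the 6 libraries, and Siglecf was at 0.181, 4.63 and 1.22 under SAL and 0, 1.12 and 0.792 under ASP. Ear1, an eosinophil-associated ribonuclease that macrophages also make, was at 0.816, 0.617 and 1.97 under SAL and 1.57, 7.001 and 4.62 under ASP (1.92 ± 0.74), and Ear2 at 2.63, 5.55 and 7.75 under SAL and 6.55, 24.5 and 17.7 under ASP (1.61 ± 0.71), both high in ASP replicates 2 and 3. They share 57.4% and 41.5% of their 50-base stretches with other genes. The neutrophil genes S100a8 and S100a9 were at 1.99, 0.617 and 0.456 under SAL and 0.0873, 4.48 and 0.132 under ASP and 2.18, 0.925 and 0.152 under SAL and 0.611, 7.37 and 0.264 under ASP, low throughout. Lcn2, which binds bacterial iron carriers and is made by neutrophils and stressed epithelium (chromosome 2, 32384637 to 32387739), was at 3.08, 12.03 and 1.899 under SAL and 1.14, 0.653 and 0 under ASP (-3.13 ± 0.92, unadjusted p = 0.00332). All its ASP values lay under all SAL values. Ppbp, a platelet and neutrophil chemokine, was at 1.18, 1.85 and 0.304 under SAL and 0, 0.2801 and 0 under ASP, Retnlg, a neutrophil product, at 0.0906, 0.617 and 0 under SAL and 0.175, 0.8402 and 3.698 under ASP and the epithelial chemokine Cxcl5 at 32.4, 33.6 and 15.4 under SAL and 21.4, 32.8 and 66.3 under ASP.

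Mast cell genes were well detected, and the granule proteases did not separate the groups: Cpa3 was at 93.1, 117 and 63.2 under SAL and 47.5, 104 and 140.4 under ASP, Mcpt4 at 35.6, 40.9 and 42.8 under SAL and 20.8, 64.6 and 26.1 under ASP and Tpsb2 at 6.89, 9.25 and 9.797 under SAL and 11.5, 21.8 and 6.87 under ASP. Kit, the stem cell factor receptor of mast cells and melanocytes, was at 5.44, 3.39 and 7.06 under SAL and 6.899, 7.28 and 28 under ASP (1.39 ± 0.57), and Ms4a2, the beta chain of the IgE receptor, at 1.09, 2.98 and 2.35 under SAL and 2.79, 2.99 and 18.4 under ASP (1.90 ± 0.86). Their higher means come from ASP replicate 3. Icos, a costimulatory receptor of T cells and innate lymphoid cells, was at 0.725, 1.03 and 2.13 under SAL and 5.94, 1.68 and 28 under ASP (3.17 ± 0.96, unadjusted p = 0.00447), again with ASP replicate 3 far above the rest and ASP replicate 2 inside the SAL range. Cd3e of the T cell receptor was at 8.43, 14.1 and 9.87 under SAL and 10.3, 5.04 and 17.04 under ASP (-0.00 ± 0.47), Cd4 at 5.71, 4.83 and 0.304 under SAL and 4.104, 0.5601 and 5.41 under ASP and Ctla4 at 1.72, 1.13 and 0.304 under SAL and 3.49, 2.43 and 1.58 under ASP. The joining chain gene Jchain of plasma cells was at 12.96, 6.07 and 15.3 under SAL and 18.2, 15.3 and 13.1 under ASP.

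The receptors and adaptors that sense fungi gave a median of 0.00 over 22 tested genes, with 12 positive (51.5% of all genes). Only Bcl10 was higher at an unadjusted p under 0.05 (2.87% of all genes), and none was lower. Syk, the kinase that follows C-type lectins, was at 6.07, 8.02 and 9.19 under SAL and 11.6, 10.4 and 17.3 under ASP (0.75 ± 0.44) without overlap, and Card9, the partner of Bcl10, at 1.72, 1.54 and 1.44 under SAL and 1.57, 2.24 and 8.85 under ASP (1.41 ± 0.77), high in ASP replicate 3. Clec7a, the beta-glucan receptor, was at 1.99, 3.29 and 0.532 under SAL and 1.92, 4.48 and 4.36 under ASP and the soluble sensor Ptx3 at 1.99, 1.03 and 2.13 under SAL and 0.437, 1.77 and 0 under ASP. IL-1 and IL-36 family genes had a median of 0.13 over 18, with none at an unadjusted p under 0.05. Il1r2, the decoy receptor for IL-1, was at 5.53, 5.65 and 9.34 under SAL and 11.6, 18.9 and 10.4 under ASP (0.99 ± 0.50) without overlap, and Il18, a cytokine of keratinocytes, at 15.5, 8.53 and 7.59 under SAL and 10.7, 36.2 and 11.1 under ASP (0.88 ± 0.49). Il1f8, an IL-36 cytokine, was at 12.5, 7.197 and 4.86 under SAL and 3.23, 4.201 and 8.45 under ASP.

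Proinflammatory cytokines and monocyte chemokines had a median of -0.12 over 21 tested, 9 positive. Ccl3, an inflammatory chemokine, was at 4.71, 1.64 and 0.0759 under SAL and 0.349, 0.373 and 0 under ASP (-3.01 ± 1.33), and inducible nitric oxide synthase Nos2 at 0.544, 1.44 and 1.22 under SAL and 0.524, 0.2801 and 0 under ASP (-1.87 ± 1.08). Cxcl12, a stromal chemokine, was at 66.8, 79.4 and 68.5 under SAL and 54.6, 57.9 and 46.6 under ASP (-0.43 ± 0.28), with the groups apart. Interferon response genes centred at 0.03 over 30, with 16 positive. Ifi27l2a was at 14.1, 22.7 and 16.3 under SAL and 12.1, 102 and 20.6 under ASP (1.34 ± 0.57), high in ASP replicate 2, and Zbp1, a nucleic acid sensor, at 6.71, 6.17 and 3.72 under SAL and 4.28, 5.601 and 22.6 under ASP (0.96 ± 0.59), high in ASP replicate 3. Of the antimicrobial genes, the beta defensin Defb6 was at 1.72, 7.09 and 4.405 under SAL and 3.84, 18.7 and 3.83 under ASP and Defb1 at 7.43, 10.9 and 3.87 under SAL and 7.16, 24.5 and 6.47 under ASP, both highest in ASP replicate 2.

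The epidermis differed more between libraries than between treatments. Summed over the list, keratin transcripts ranged from 4679 CPM in ASP replicate 2 to 13063 in SAL replicate 1, with 11699 in ASP replicate 1. Krt5 of the basal layer was at 2582, 1167 and 1475 under SAL and 2488, 609.9 and 843 under ASP and its partner Krt14 at 352, 180.4 and 239.8 under SAL and 303, 294 and 170.0 under ASP. The wound keratin Krt6b was at 297, 56.03 and 45.04 under SAL and 94.5, 38.9 and 19.9 under ASP (-1.37 ± 0.72) and Krt6a at 383, 129.9 and 140.4 under SAL and 250.1, 86.1 and 48.99 under ASP (-0.76 ± 0.60), both highest in SAL replicate 1. Krt80 and Krt23 stood in the other direction, with log2 fold changes of 0.48 and 0.32. The keratin list had a median of -0.28 over 15 tested, with 5 positive (51.5% of all genes). Without SAL replicate 1 that median was 0.20. Stress and wound genes had a median of -0.01 over 28 tested. Cornified envelope genes had 0.04 over 39, and against 2.87% of all genes, 2 of them were higher at an unadjusted p under 0.05. These were Krtdap, a secreted protein of differentiating keratinocytes, at 486, 587 and 409 under SAL and 474, 1698 and 902 under ASP (1.05 ± 0.41), and the late cornified envelope gene Lce1m at 42.3, 64.3 and 75.8 under SAL and 79.1, 215 and 71.3 under ASP (1.00 ± 0.41). ASP replicate 2 was the highest library for both.

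Barrier lipid genes had a median of -0.03 over 34. The ceramide synthase Cers3 was at 24.1, 14.9 and 23.1 under SAL and 17.7, 13.9 and 87.3 under ASP, with ASP replicate 3 alone high. Junction genes had a median of 0.00 over 22. Tjp3, a tight junction scaffold, was at 7.79, 4.32 and 5.85 under SAL and 12.6, 8.31 and 14.1 under ASP (0.96 ± 0.42) without overlap, and the desmosomal plakophilin Pkp2 at 4.89, 1.85 and 3.57 under SAL and 22.9, 3.45 and 4.49 under ASP (1.58 ± 0.65), where the high library was ASP replicate 1. Skin proteases and their inhibitors had a median of -0.12 over 19, with the kallikrein Klk5 at 52.6, 47.1 and 51.3 under SAL and 48.2, 33.3 and 23.1 under ASP (-0.53 ± 0.37). The Serpinb3 paralogs, serpins of stressed epidermis, had overlapping groups in all 4 genes. Serpinb3b, the most abundant, was at 34.7, 27.9 and 9.64 under SAL and 16.7, 22.2 and 5.81 under ASP (-0.69 ± 0.48), Serpinb3c at 3.44, 3.495 and 0.835 under SAL and 2.36, 3.27 and 1.45 under ASP, Serpinb3a at 0.725, 0.7196 and 0.304 under SAL and 0.699, 1.4 and 0.264 under ASP and Serpinb3d at 0.272, 0.103 and 0.228 under SAL and 0.175, 0.0934 and 0.264 under ASP. Between 12.2% and 15.04% of their stretches are shared with other genes.

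Hair shaft and inner root sheath genes, which are transcribed in growing follicles, had a median log2 fold change of -1.05 over 14 tested of 44 in the table. Of these 14, 2 were positive and 4 lower at an unadjusted p under 0.05, against 51.5% positive and 1.87% lower over all genes. SAL replicate 1 was the highest library for 39 of the 44 genes. Tchh, trichohyalin of the inner root sheath (chromosome 3, 93442330 to 93449077), was at 189, 5.55 and 2.13 under SAL and 1.48, 1.59 and 0.264 under ASP (-5.81 ± 1.39). The inner root sheath keratins Krt25, at 101, 1.64 and 0.152 under SAL and 0, 0.2801 and 0 under ASP, and Krt71, at 55.7, 1.34 and 0.304 under SAL and 0.0873, 0.2801 and 0 under ASP, did not pass the filter on low counts. Krt27 was at 42.2, 1.85 and 0.3797 under SAL and 1.22, 0.653 and 0.132 under ASP (-4.39 ± 1.22), and Krtap3-3, a keratin-associated protein of the shaft, at 9.61, 0.411 and 0.532 under SAL and 0.524, 0.2801 and 0 under ASP (-3.57 ± 1.23). The cadherin Dsg4 was at 6.25, 0.514 and 1.14 under SAL and 0.175, 0.0934 and 0.264 under ASP (-3.84 ± 1.44). Of the shaft genes that were not tested, Krt33a was at 15.04, 0.103 and 0.152 under SAL and 0.0873, 0 and 0 under ASP and Krtap8-1 at 13.7, 0.103 and 0 under SAL and 0, 0 and 0 under ASP. Summed over the list, SAL replicate 1 held 699 CPM and the other 5 libraries 95.5 to 171. Without SAL replicate 1 the median of the list was 0.05, and without ASP replicate 2 it was -1.48. With the filter of 2 CPM in 3 libraries the median was -0.24, and in only the 6 wild-type libraries it was -0.23. Of the transcription factors of the follicle on the same list, Hoxc13 was at 11.3, 4.73 and 5.77 under SAL and 5.76, 2.15 and 0.264 under ASP (-1.39 ± 0.70), with ASP replicate 3 near 0. Msx2 was at 16.04, 7.505 and 6.15 under SAL and 10.7, 9.05 and 8.32 under ASP (-0.08 ± 0.54) and Foxn1 at 16.6, 11.3 and 11.7 under SAL and 17.8, 6.81 and 8.72 under ASP (-0.24 ± 0.53).

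Stem cell and outer root sheath genes had a median of -0.16 over 21. Ptch1, the Hedgehog receptor and target, was at 26.5, 19.4 and 24.1 under SAL and 16.7, 7.37 and 13.7 under ASP (-0.89 ± 0.41) without overlap, and the Hedgehog effector Gli2 at 19.1, 23.4 and 17.2 under SAL and 17.2, 5.51 and 10.2 under ASP (-0.86 ± 0.51). Sox9, a stem cell factor, was at 64.6, 21.1 and 21.4 under SAL and 33.8, 5.41 and 20.1 under ASP, with SAL replicate 1 high and ASP replicate 2 low. Sebaceous gland genes had a median of 0.15 over 25, with none at an unadjusted p under 0.05. Scd3, a desaturase of sebocytes, was at 345, 254 and 380.0 under SAL and 273, 329 and 371 under ASP (-0.01 ± 0.30). Cell cycle genes had a median of -0.10 over 40, with none at an unadjusted p under 0.05. Top2a, the topoisomerase of dividing cells, was at 120.4, 97.8 and 72.6 under SAL and 85.6, 54.2 and 59.2 under ASP (-0.55 ± 0.29), with overlap. Bub1b of the spindle checkpoint was at 11.6, 6.07 and 5.54 under SAL and 4.63, 3.55 and 5.02 under ASP (-0.81 ± 0.45), with ASP values under SAL values.

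Matrix genes of the dermis did not share a direction, with a median of 0.16 over 30 and none at an unadjusted p under 0.05. The median was -0.24 without ASP replicate 3 and -0.01 without SAL replicate 2. Col1a1 was at 756, 547 and 406 under SAL and 461, 169.7 and 906 under ASP (-0.15 ± 0.56) and Col5a2 at 52.3, 60.8 and 68.4 under SAL and 57.9, 69.5 and 179 under ASP (0.75 ± 0.37), with ASP replicate 3 the highest in both. Pdgfra, the growth factor receptor of fibroblasts, was at 45.8, 42.2 and 42.98 under SAL and 33.3, 37.8 and 17.6 under ASP (-0.56 ± 0.32), with the groups apart. Endothelial genes had a median of -0.19 over 23, with 7 positive, 0 higher and 1 lower at an unadjusted p under 0.05. Over all genes 51.5% were positive, 2.87% higher and 1.87% lower. The median was -0.36 without SAL replicate 1 and -0.43 without ASP replicate 1. Ackr1, a chemokine scavenger of venules, was at 15.6, 24.6 and 12 under SAL and 10.7, 10.5 and 10.04 under ASP (-0.73 ± 0.34), and Pecam1, a junction protein of endothelium, at 44.5, 26.01 and 29.7 under SAL and 25.8, 25.02 and 9.77 under ASP (-0.72 ± 0.37), both without overlap. Cdh5 was at 71.5, 59.9 and 63.6 under SAL and 53.97, 26.7 and 64.2 under ASP (-0.43 ± 0.47) and Eng at 27.6, 11.6 and 33.04 under SAL and 17.6, 11.8 and 10.96 under ASP (-0.84 ± 0.45), with overlap. Cldn5 stood in the other direction, with a log2 fold change of 1.67 that was 0.85 without ASP replicate 2. Kdr had 0.02, Tek -0.14 and Flt1 -0.63.

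Fat and muscle transcripts varied widely between libraries. Plin1, which coats lipid droplets, was at 236, 434 and 234 under SAL and 169.9, 190.0 and 301 under ASP and Adipoq, adiponectin, at 59.5, 116 and 107 under SAL and 40.6, 238 and 40.1 under ASP. The muscle list summed to 124674, 34313 and 117882 CPM under SAL and to 60946, 28106 and 81442 under ASP. Its median log2 fold change was -0.39 over 29 tested, with 6 positive (51.5% of all genes). Leaving out 1 library gave medians from -0.73 (SAL replicate 2) to -0.16 (SAL replicate 3). The creatine kinase Ckm was at 2805, 1022 and 1280.2 under SAL and 825, 554 and 1049 under ASP (-1.07 ± 0.42) and Mybpc2, a myosin-binding protein of fast fibres, at 276, 86.4 and 367 under SAL and 136, 108 and 135 under ASP (-0.95 ± 0.41). Of the same list, Tnni1 and Mylpf stood in the other direction, with log2 fold changes of 2.54 and 0.46. That of Mylpf was -0.55 without ASP replicate 2. Clcn1 and Capn3, described above, are muscle genes too. SAL replicate 2 and ASP replicate 2 were the libraries with the least muscle RNA, and they had 24.6 and 10.8 CPM of Clcn1 and 45.03 and 6.91 CPM of Capn3. The part of muscle content in their differences was not tested.

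Immediate early genes, which cells switch on within minutes of a stimulus or of tissue handling, had a median of -0.41 over 24 tested, with 9 positive, 1 higher and 5 lower at an unadjusted p under 0.05, against 2.87% higher and 1.87% lower over all genes. The median was -0.13 without SAL replicate 2 and -0.67 without SAL replicate 3. Nr4a1 had the smallest p, with the values given above. Nr4a3, its relative, was at 1.63, 0.925 and 3.04 under SAL and 0.437, 0.2801 and 0.6603 under ASP (-2.03 ± 0.82) without overlap, at a low level. Egr2, a zinc finger factor, was at 39.3, 18.2 and 16.2 under SAL and 17.3, 12.9 and 11.2 under ASP (-0.83 ± 0.37) and Zfp36, an mRNA decay factor, at 50.03, 112 and 36.98 under SAL and 44.5, 21.8 and 36.4 under ASP (-0.95 ± 0.42). Ccn2, a matricellular protein downstream of YAP and TGF-β, stood in the other direction, at 6.25, 4.22 and 9.27 under SAL and 14.1, 10.1 and 17.2 under ASP (1.06 ± 0.41), without overlap. The 250 bases before the start that the RefSeq promoter table uses for Nr4a1 (GRCm38.p6, chr15:101266596-101266845, plus strand) hold the letters CGTCA, the core of the element bound by CREB family factors, 4 times. They are printed in lower case with these matches in capitals because Nr4a1 leads the list. The region lies inside the annotated gene, whose ends were given above.
Nr4a1: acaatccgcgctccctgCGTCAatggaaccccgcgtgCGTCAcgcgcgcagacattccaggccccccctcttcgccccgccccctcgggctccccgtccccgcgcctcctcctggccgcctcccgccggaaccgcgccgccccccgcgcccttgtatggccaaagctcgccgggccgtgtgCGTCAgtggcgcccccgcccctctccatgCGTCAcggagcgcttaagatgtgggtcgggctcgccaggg
Of the 18 immediate early genes with a promoter in the table, 12 hold CGTCA on either strand in these 250 bases, against 28.2% of the 11980 tested genes that have a promoter there.

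Chaperones of the heat shock response had a median of -0.21 over 18, which was -0.10 without ASP replicate 3 and -0.13 without SAL replicate 3. Hsph1 was at 122, 53.97 and 86.05 under SAL and 53.01, 43.4 and 61.5 under ASP (-0.73 ± 0.32) and Dnajb4 at 50.3, 55 and 49.7 under SAL and 36.3, 45.3 and 33.1 under ASP (-0.43 ± 0.26). The ASP values of Dnajb4 lay under its SAL values. Unfolded protein response genes had a median of -0.19 over 20, with 5 positive (51.5% of all genes) and none at an unadjusted p under 0.05. The median was -0.01 without ASP replicate 3. The disulphide isomerase Pdia4 was at 28.6, 51.4 and 32.4 under SAL and 26.9, 25.2 and 15.8 under ASP (-0.72 ± 0.39). Among antioxidant genes, Mt2, a metallothionein that binds zinc and answers to metals and glucocorticoids (chromosome 8, 94172618 to 94173567), was at 20.3, 19.5 and 31.1 under SAL and 12.1, 12.2 and 12.9 under ASP (-0.93 ± 0.33, unadjusted p = 0.0112). Its 3 ASP values were nearly equal and lay under all SAL values. Clock genes had a median of -0.05 over 18, with Nr1d1 at 237, 124 and 122 under SAL and 149.9, 60.02 and 162 under ASP.

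The lysosome list had a median of 0.17 over 24, with 18 positive, 3 higher and 0 lower at an unadjusted p under 0.05, against 51.5% positive, 2.87% higher and 1.87% lower over all genes. Without ASP replicate 2 the median was -0.13, the other sign. Atp6v0e, a subunit of the proton pump that acidifies lysosomes (chromosome 17, 26676396 to 26699647), was at 7.61, 12.03 and 8.96 under SAL and 11.96, 28.1 and 142 under ASP (2.66 ± 0.65). ASP replicate 3 was far above the rest, ASP replicate 2 was intermediate and ASP replicate 1 lay just under the highest SAL library. Ctsz, a lysosomal protease of myeloid cells, was at 1.45, 7.92 and 8.89 under SAL and 4.37, 21.4 and 35.7 under ASP (1.74 ± 0.66), and Npc2, which moves cholesterol out of lysosomes, at 15.4, 32.4 and 30.1 under SAL and 29.5, 99.7 and 25.4 under ASP (0.99 ± 0.45). Atp6v0d2, a proton pump subunit of macrophages and osteoclasts, was at 1.903, 6.17 and 3.72 under SAL and 7.07, 7.001 and 30.2 under ASP (1.90 ± 0.93), with the groups apart.

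Genes of the cytosolic ribosome had the highest median of any list except that of red blood cell transcripts. Their median log2 fold change was 0.93 over 83 tested, with 79 positive (51.5% of all genes) and 35 higher at an unadjusted p under 0.05 (2.87% of all genes). The ASP libraries all lay above the SAL libraries in 2 of the 83, near the 3.18% of all genes. ASP replicate 2 was the highest library for 75 of the 83. Summed over the list, it held 25971 CPM, against 8588 to 11288 in the other 5. Rps12, of the small subunit, was at 18.7, 29.4 and 30.9 under SAL and 29.3, 154 and 70.9 under ASP (1.69 ± 0.44), and Rplp2, of the stalk, at 46.8, 55.2 and 73.4 under SAL and 66.2, 355 and 129.6 under ASP (1.65 ± 0.46). Rpl26 was at 31.99, 45.03 and 38.4 under SAL and 38.8, 183 and 97.1 under ASP (1.47 ± 0.41), Rps15a at 52.9, 62.6 and 75.3 under SAL and 71.5, 379.8 and 118 under ASP (1.58 ± 0.47) and its pseudogene Rps15a-ps4 at 15.2, 17.8 and 21.4 under SAL and 21.9, 138 and 42.7 under ASP (1.89 ± 0.50). Rplp0, which separated the groups, was at 63.99, 85.7 and 90.3 under SAL and 109.5, 386 and 216 under ASP (1.57 ± 0.44). ASP replicate 3 was the next highest in these 6 genes and ASP replicate 1 was close to the SAL libraries. Of the 50-base stretches, 25.0% in Rps12, 22.7% in Rpl26, 18.3% in Rplp2 and 5.12% in Rps15a also occur in another gene. Their levels are thus uncertain too. Without ASP replicate 2 the median of the list was -0.04.

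Subunits of the mitochondrial respiratory chain were mostly highest in the same library. Their median was 0.46 over 81 tested, and ASP replicate 2 was the highest for 66. Of the 81, 64 were positive, 10 higher and 1 lower at an unadjusted p under 0.05. Over all genes 51.5% were positive, 2.87% higher and 1.87% lower. Uqcrb, of complex III, was at 12.6, 11 and 23.8 under SAL and 12.3, 40.3 and 71.2 under ASP (1.38 ± 0.51), and Ndufb5, of complex I, at 13.6, 10.9 and 23.8 under SAL and 10.4, 81.2 and 45.4 under ASP (1.50 ± 0.56). In Uqcrb 25.4% of the 50-base stretches also occur in another gene. Without ASP replicate 2 the median of the respiratory chain list was -0.36. Both lists hold short transcripts, with median lengths of 628.5 and 595.5 bases, against 1497 for all tested genes with a length. All genes were cut into 5 equal groups by length, and log2 deviations were taken from the mean of the 3 SAL libraries. In ASP replicate 2 the median deviation was 0.21 in the group of shortest transcripts and -0.24 in the group of longest ones. In ASP replicate 3 the same values were -0.13 and 0.03. The shortest group without the ribosomal and respiratory chain lists was at 0.17 in ASP replicate 2. The part of transcript length in the differences of these lists was not tested.

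**Figure D4:**
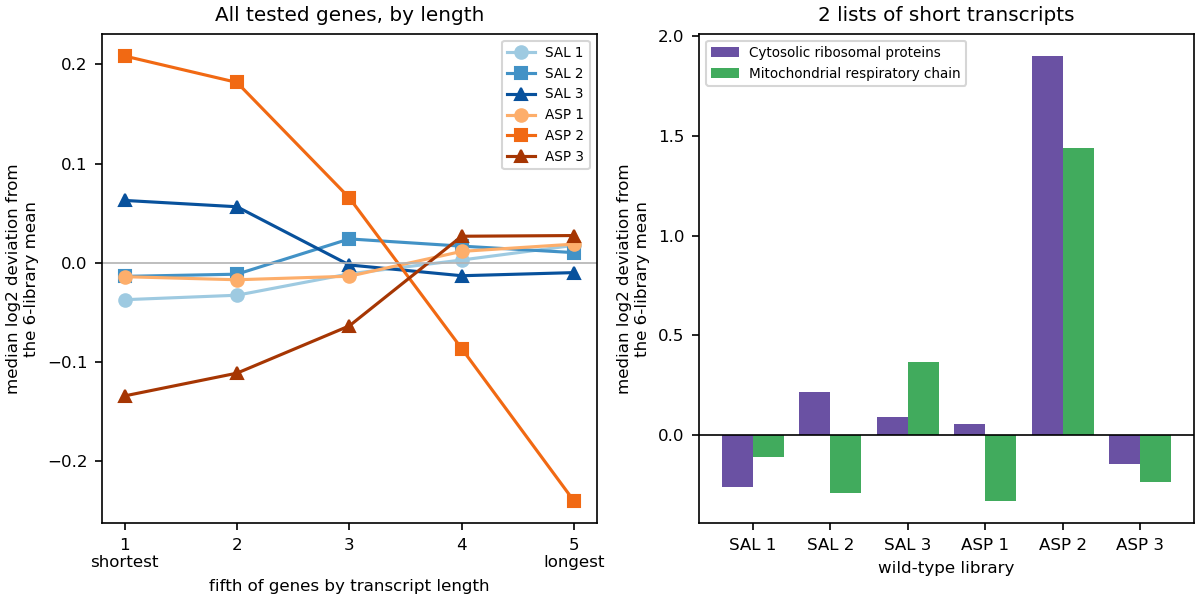
Left, median log2 deviation from the mean of the 3 SAL libraries (vertical axis) of genes in 5 groups of rising transcript length (horizontal axis), with 1 line per library. Right, the same median for the ribosomal protein and respiratory chain lists in each library, as bars from 0. The axis labels name the 6-library mean in error. ASP replicate 2 runs from 0.21 in the shortest group to -0.24 in the longest and reaches 1.90 for ribosomal proteins.

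The promoters of the ribosomal protein genes share short elements, and those of 3 members with large differences are printed to show one of them. The letters CTTCCG or their complement CGGAAG, the core of the site for ETS family factors, were counted in the 250 bases before the start that the RefSeq promoter table uses. They were found in 32 of the 62 ribosomal protein genes with a promoter there (51.6%). They were found in 25.6% of the 11980 tested genes and in 15.3% of all 27025 promoters. Each region is written 5′ to 3′ along its gene, with the match in capitals, for Rps12 (GRCm38.p6, chr10:23787210-23787459, minus strand), Rplp2 (chr7:141447401-141447650, plus strand) and Rps15a (chr7:118116148-118116397, minus strand). The region of Rps12 lies partly inside its annotated gene, which reaches base 23787383, and the match is in that part.
Rps12: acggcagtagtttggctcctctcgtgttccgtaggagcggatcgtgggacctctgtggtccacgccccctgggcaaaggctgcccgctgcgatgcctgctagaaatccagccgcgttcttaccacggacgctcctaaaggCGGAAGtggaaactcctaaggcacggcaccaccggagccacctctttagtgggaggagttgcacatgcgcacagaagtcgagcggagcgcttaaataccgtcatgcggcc
Rplp2: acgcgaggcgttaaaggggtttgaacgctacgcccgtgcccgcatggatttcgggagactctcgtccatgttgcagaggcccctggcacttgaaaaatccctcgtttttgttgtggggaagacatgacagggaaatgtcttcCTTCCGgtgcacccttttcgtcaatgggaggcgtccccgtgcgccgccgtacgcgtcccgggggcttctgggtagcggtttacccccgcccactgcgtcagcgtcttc
Rps15a: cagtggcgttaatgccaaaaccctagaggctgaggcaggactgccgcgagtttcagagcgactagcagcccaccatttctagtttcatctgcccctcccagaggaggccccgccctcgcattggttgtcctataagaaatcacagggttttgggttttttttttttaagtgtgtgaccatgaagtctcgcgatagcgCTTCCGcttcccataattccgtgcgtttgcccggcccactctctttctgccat
Of the alternatively activated macrophage genes with a promoter in the table, 1 of 14 holds CTTCCG and 2 of 14 hold CGTCA. In all, 13 motifs were counted on both strands, and the pair shown was chosen after the counts were seen. Besides CTTCCG these included its longer form CTTCCGG and the overlapping TTCCGG. Pyrimidine runs were counted as CTTTCC and as the longer CTCTTTCC, which contains it. The TATA box was counted as TATAAA, a variant of it as TTTAAG, and the CCAAT box by its own letters. Besides CGTCA the full palindrome TGACGTCA was counted, which contains it. A C/EBP site was counted as TTGCGCAA, and a STAT site and a serum response element by one form each. A match is a stretch of letters and no measurement of binding.

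Transcripts of red blood cells were also highest in ASP replicate 2. Their median log2 fold change of 1.14 over 6 tested was 0.05 without that library. Among these 6, Hbb-b1 and Hbb-b2 had the same log2 fold change (1.73) in every setting, and so had Hba-a1 and Hba-a2 (0.54). The 6 are thus not independent measurements. Hbb-bs was at 1.81, 3.08 and 5.16 under SAL and 4.803, 27.2 and 3.96 under ASP (1.83 ± 0.84) and Hba-a1 at 9.52, 22.9 and 19.2 under SAL and 10.2, 43.7 and 21.4 under ASP. Alas2, which starts haem synthesis, was at 2.9, 3.29 and 4.48 under SAL and 4.803, 6.07 and 1.72 under ASP. Major urinary protein genes, whose copies are so alike that reads may be counted to the wrong one, held 8.43% to 21.1% of the counts of a library. Mup17 was at 10219.6, 7139.7 and 2885 under SAL and 3524, 4604 and 10478 under ASP, with SAL replicate 1 and ASP replicate 3 the highest. Neat1, a nuclear noncoding RNA named after its values were seen, was at 263, 279 and 252 under SAL and 519, 568 and 265 under ASP (0.77 ± 0.36), with ASP replicates 1 and 2 above the other 4 libraries.

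**Figure D5:**
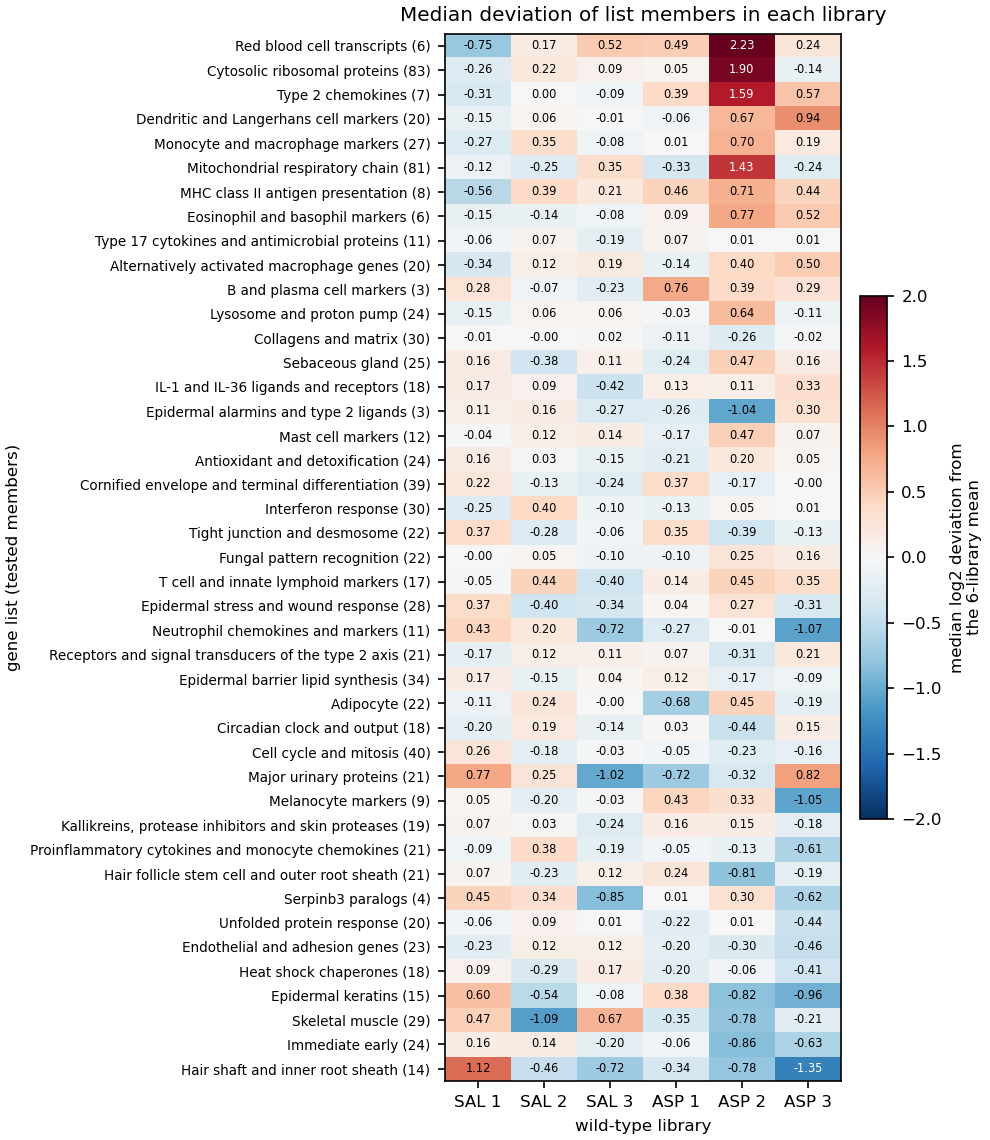
Median log2 deviation of the tested members of each list from the mean of the 3 SAL libraries (colour and printed value) in each wild-type library (columns). Rows are the lists with at least 3 tested members, with the number tested, ordered by median log2 fold change. The label of the colour scale names the 6-library mean in error. ASP replicate 2 has the highest value for ribosomal proteins, at 1.90, and SAL replicate 1 for hair genes, at 1.12.

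Whether the extract acted differently in wild-type and labelled-null skin was tested by the interaction of treatment and genotype. EdgeR's quasi-likelihood test called 0 of 15341 genes (0.00%), with a smallest adjusted p of 0.998 after Benjamini-Hochberg adjustment. The unadjusted p was under 0.05 for 358 genes with a more positive difference in wild type and 227 with a more negative one, 3.81% in all. DESeq2 called 1 gene, Gm15093, which was also its higher gene in wild type, at 0, 0 and 0 under SAL and 0, 3.73 and 1.58 under ASP. It was named after its values were seen, and it had no count in 4 of the 6 libraries. The genes given next were named for a small p in wild type, and the interaction uses those same wild-type values. Small interaction p-values were thus favoured by the choice of genes and are no support for a difference between genotypes. Homer3 had a log2 fold change of 2.35 ± 0.61 in wild type and -0.63 ± 0.59 in labelled-null skin, with an unadjusted interaction p of 0.00264. Arhgap30 had 1.41 ± 0.41 and -0.58 ± 0.40 (0.00309), and Rps6ka2 -1.82 ± 0.38 and -0.03 ± 0.37 (0.00359). H2-DMa had 1.27 ± 0.44 and -0.50 ± 0.43 (0.0104), and Icos 3.17 ± 0.96 and -0.91 ± 0.98 (0.00849). The median of the class II list was 0.45 in wild type and -0.36 in labelled-null skin, with 3 of its 8 tested members at an unadjusted interaction p under 0.05, against 3.81% of all genes. Orm1 had 1.25 ± 0.37 and 0.55 ± 0.37, Nr4a1 -1.73 ± 0.46 and -1.05 ± 0.45, and Ppcs 1.93 ± 0.58 and 0.99 ± 0.58, with the same sign in both genotypes. Since nothing passed, no response is called particular to wild-type skin.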

How the data were processed

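RNA from skin was counted in 12 libraries, of which the 6 wild-type ones are described here. The authors deposited raw counts, whole numbers of reads assigned to each Entrez Gene ID. Tools listed in the submitters' processing notes are TopHat, DESeq, bcl2fastq and CASAVA 1.8, with mm10 as the build. The sources used here do not name the counting program, its annotation or its strand setting. Of 18 count columns, 12 match a sample by name and 6 match none and were not used. Symbols and coordinates come from RefSeq GRCm38.p6 by gene ID (23372 of 23469 matched). The 97 IDs without a symbol held 7.57% to 12.0% of the counts of a wild-type library.

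After filterByExpr, TMM scaling gave wild-type factors of 0.839 to 1.28. All 12 libraries were fitted together, with 1 coefficient per group, by robust glmQLFit in edgeR 4.0.16 under R 4.3.3. The contrasts were ASP minus SAL in wild type and its difference from the same contrast in labelled-null skin, with Benjamini-Hochberg adjustment over 15341 genes and a threshold of 0.05. The common biological coefficient of variation was 0.427. Standard errors come from the same fit. The script was tested on simulated counts. Alternatives used DESeq2 1.42.0, limma 3.58.1 and the settings named in the closing section.

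The genes named were, per direction, the 15 of smallest p whose groups did not overlap and whose mean log2 CPM reached 1. To these were added the 5 members of smallest p in each list, all members of the type 2 ligand, type 2 chemokine, alternatively activated macrophage and hair shaft lists, the Serpinb3 paralogs and markers of cell types. Some are given as part of a range, and a few are not reported here. Members, the 44 lists and this rule were chosen with earlier results of these data known. Medians and counts of a list cover its tested members only, and a low gene that passed the filter through 1 group had to differ. Transcript lengths are medians over GENCODE vM21 transcripts and cover 97.5% of tested genes.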

Additional observations from a re-analysis of the deposited data

How the results depend on the processing

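Genes of low level rest on few counts, and 3 libraries per group limit every test here. The calls of ASP against SAL in wild type stayed at 0 under scaling by RLE or the upper quartile, with no filter or one of 2 CPM in 3 libraries, with robust off, in only the 6 wild-type libraries, in limma-voom with quality weights and after dropping the Mup genes and the unnamed IDs, and became 2 with DESeq2 (Rps6ka2 and Gm15093). The interaction stayed at 0 under each of these that was run for it and became 1 with DESeq2. Genes at an unadjusted p under 0.05 numbered 727, but 438 with only the 6 wild-type libraries and 360 with limma-voom, and 255 without the WT_ASP libraries numbered 2 and 3, a setting chosen after seeing the data. Leaving out 1 wild-type library at a time gave 0 calls each time and 413 to 1358 genes at an unadjusted p under 0.05. The lowest of these had no SAL replicate 1 and the highest no ASP replicate 1, and the cause was not tested. The interaction had 0 calls without any 1 of the 12 libraries.

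Same-numbered libraries did not deviate together (correlations of deviations in wild type 0.12, -0.03 and -0.21). With 3 libraries per group, these values cannot decide whether the numbers pair the samples. With the replicate number as a block there were 0 calls in the comparison and in the interaction, and 604 genes at an unadjusted p under 0.05. Over 17 settings, 178 of 302 named genes kept the sign of their log2 fold change in each, and 124 took the other sign in at least 1. Of 44 list medians, 11 kept their sign in each setting, among them MHC class II, type 2 chemokine, immediate early, endothelial and skeletal muscle genes, though leaving out 1 library moved each of these except MHC class II by over 1.5 times. In limma-voom the medians were 0.44 for type 2 chemokines, 0.47 for ribosomal proteins, 0.07 for the respiratory chain, 0.73 for red blood cell transcripts and -0.20 for immediate early genes.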

Other observations

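Some transcripts stood high in 1 wild-type library alone. Counting genes whose level was over 4 times that of the next library (with 1 CPM as the least divisor), there were 101 in ASP replicate 3, 74 in ASP replicate 2, 34 in SAL replicate 2, 29 in SAL replicate 1, 10 in ASP replicate 1 and 5 in SAL replicate 3. Ndufa8, a subunit of respiratory complex I, read 100.4 CPM in SAL replicate 2 and 3.17 to 12.2 CPM in the other 5. The cytokine genes Il5 and Il9 had their only clear counts in that same library.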
